A study of Homo sapiens with 12 samples.

Results

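CHI3L2, HSD11B1, SEMA5A and NFATC4 are 4 of the 56269 genes in the count table. They were selected on the expression values themselves, because they set the S534A libraries apart from the other libraries, so their levels in S534A are given as a description with no test. CHI3L2 was higher in S534A, while SEMA5A and NFATC4 were lower. HSD11B1 was chosen as lower in S534A, but 1 control vector library fell within the S534A range. All 4 genes were among the 16069 genes that passed the filter on low counts, and CHI3L2 passed it only through the S534A libraries.

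CHI3L2 encodes YKL-39, a secreted chitinase-like glycoprotein that binds chitin without cleaving it and is best known from cartilage and macrophages. HSD11B1 encodes the endoplasmic reticulum enzyme that regenerates active cortisol from cortisone, with NADPH supplied by hexose-6-phosphate dehydrogenase (H6PD), and cortisol then acts through the glucocorticoid receptor (NR3C1). SEMA5A is a transmembrane semaphorin with thrombospondin repeats, a ligand of plexin-B3 whose guidance activity is known to depend on whether heparan or chondroitin sulfate proteoglycans are nearby. NFATC4 is a transcription factor that moves to the nucleus once calcineurin, a calcium-dependent phosphatase, dephosphorylates it.

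RNA-seq was performed on 12 libraries of HEYA8, an ovarian cancer cell line, in 4 groups of 3. The study asked how the glycosaminoglycan chains of betaglycan (BG, the product of TGFBR3), a TGF-β co-receptor, change what the protein does. All cells carried the lentiviral vector and were sorted on its dTomato marker, and the labels give them as at rest in RPMI-1640 with serum, which the study describes as regular growth medium. The groups were the control vector, ∆GAG-BG with both chain attachment serines changed to alanine, S534A (called CS-BG) with only the first site changed, and S545A (called HS-BG) with only the second. Each construct is represented by 1 stable population, nothing says that the libraries came from separate cultures, and p-values measure the spread between these libraries only. The title of the third S545A library spells the mutation differently, but its genotype label is S545A. The builds listed in the processing notes are mouse, whereas the symbols and coordinates of the table are human (GRCh38).

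TGFBR3 level did not follow the labels in every library. Its CPM (counts scaled to library size with TMM factors) was 413 to 476 in S534A and 520 to 574 in S545A. The library labelled ∆GAG-BG replicate 1 had 260 CPM, and replicates 2 and 3 had 20.3 and 21.4. The library labelled control vector replicate 1 had 15.9 CPM, and replicates 2 and 3 had 259 each, so that TGFBR3 went against the labels in replicates 2 and 3 of these groups. Libraries 2 and 3 of S545A, ∆GAG-BG and the control vector were also far closer to each other (1.40 to 1.99 chi-square per degree of freedom, where 1 is sampling noise) than any other pair of 1 group (17.4 to 78.6). They were counted as separate samples. The log2 differences and the count of related genes were also computed with each pair summed, while correlations and counts of groups that do not overlap were not. Total counts ranged from 16410001 to 29504297, and a count of 0 allows up to 0.1001 to 0.182 CPM, which covers counting error only.

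Markers of the labelled cells were present, with the 8 ovarian carcinoma and epithelial genes summing to 2326 to 2950 CPM, although MUC16 and CDH1 had no count. The macrophage markers summed to 0.121 to 1.27 CPM in S534A and 0.226 to 0.566 in the others, none of the 7 passed the filter and CD163 was at 0. The top of the S534A range was mostly CSF1R, which reached 1.201 CPM and had at most 36 counts in a library. The chondrocyte markers summed to 32.6 to 39.8 CPM in S534A and 33.2 to 45.7 in the others, with ACAN at 0. Only SOX9 and MATN3 of them passed the filter, and COL2A1 and COMP had at most 1 count in a library. The 6 adipocyte and hepatocyte markers summed to at most 0.735 CPM, fibroblast markers to 8.94 to 21.5 with DCN and LUM at 0, and endothelial markers to 172 to 445. The endothelial sum was mostly CDH5 (mean 292 CPM in S534A and 368 in the others), while PECAM1 stood at no more than 0.768 CPM. Of the 3 mesenchymal markers, VIM (log2 difference −0.17, unadjusted p = 0.0375, adjusted p = 0.638) and FN1 (log2 difference −0.78, unadjusted p = 0.0177, adjusted p = 0.638) were lower in S534A before adjustment with edgeR, a threshold that 6.90% of all genes passed. Their part in the levels of the 4 genes was not tested.

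The mutated sites lie close to each other in exon 11 of TGFBR3 (transcript ENST00000212355.8, minus strand), and they define the groups compared here. The stretches below are coding sequence of the GENCODE reference at chr1:91716658-91716690 and chr1:91716625-91716657 of GRCh38, with the serine codon in capitals and 5 codons on each side. In both, the codon that follows encodes the glycine of the serine-glycine pair to which chains are attached.
S534: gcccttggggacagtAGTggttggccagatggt
S545: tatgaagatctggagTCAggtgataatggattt

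The bases upstream of the start sites of the 4 genes are shown because these genes differ in the same libraries and because SEMA5A shares its upstream stretch with the non-coding gene SNHG18. They come from the RefSeq windows (GRCh38.p14), which held 7 start sites for the 4 genes; the first site is used and exonic bases are left out. Capitals mark matches, on either strand, to GGAAA (the core bound by NFAT) or GGGCGG (the GC box). CHI3L2 is at chr1:111227409-111227485 (plus), within an intron of its longer transcript, HSD11B1 at chr1:209685929-209686177 (plus), SEMA5A at chr5:9546076-9546199 (minus) and NFATC4 at chr14:24366661-24366910 (plus), also within its own locus but outside exons.
CHI3L2: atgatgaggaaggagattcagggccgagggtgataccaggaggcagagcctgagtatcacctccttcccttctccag
HSD11B1: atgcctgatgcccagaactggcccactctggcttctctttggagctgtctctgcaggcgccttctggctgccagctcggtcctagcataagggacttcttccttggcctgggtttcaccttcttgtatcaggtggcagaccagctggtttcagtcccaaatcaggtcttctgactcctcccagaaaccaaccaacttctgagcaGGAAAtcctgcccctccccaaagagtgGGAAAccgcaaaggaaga
SEMA5A: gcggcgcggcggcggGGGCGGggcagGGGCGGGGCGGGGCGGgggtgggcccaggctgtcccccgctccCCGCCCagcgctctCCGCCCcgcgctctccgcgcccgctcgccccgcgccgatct
NFATC4: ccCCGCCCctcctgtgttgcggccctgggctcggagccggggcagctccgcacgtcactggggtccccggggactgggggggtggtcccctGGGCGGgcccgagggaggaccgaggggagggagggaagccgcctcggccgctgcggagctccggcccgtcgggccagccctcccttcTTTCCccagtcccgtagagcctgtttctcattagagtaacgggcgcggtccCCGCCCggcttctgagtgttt

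The SEMA5A stretch held 6 GC box matches, and the NFATC4 stretch held 3. HSD11B1 held 2 NFAT core matches, NFATC4 held 1, and CHI3L2 held none in its 77 bases. In the full 300-base windows of these start sites, GGAAA matches numbered 3 for HSD11B1 and 1 each for NFATC4 and CHI3L2. SEMA5A had 0. Matches to GGGCGG in those windows numbered 7 for SEMA5A and 3 for NFATC4. Among all 35116 promoter windows of 300 bases, 61.2% held GGAAA and 45.0% held GGGCGG, so such matches are common. No match was found in any window of the 4 genes for the half-site bound by the glucocorticoid receptor, AGAACA, which 14.8% of all windows held. The AP-1 site TGACTCA, present in 4.95% of all windows, was likewise not found in these 7 windows. Nor were the SMAD palindrome GTCTAGAC (0.202% of windows) and the cyclic AMP element TGACGTCA (1.85%). The TATA box TATAAA, held by 11.5% of windows, was not seen either. Matches are a description of these letters only.

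CHI3L2 (ENSG00000064886.13, chr1:111200771-111243440, plus strand, 15 exons in the table) was present in S534A and nearly absent elsewhere. The S534A libraries held 81, 36 and 26 counts, which are 2.88 CPM (95% exact Poisson interval 2.29 to 3.58), 1.201 (0.841 to 1.66) and 1.58 (1.03 to 2.31). S545A held 1, 0 and 1 counts, ∆GAG-BG held 0 in all 3 libraries and the control vector held 2, 0 and 0. Every S534A library was thus above every other library, and within S534A the first library was the highest. CHI3L2 averaged 1.89 ± 0.881 CPM in S534A (SD, n = 3). The S534A mean was 13.5 times the highest 3-count floor of the ∆GAG-BG libraries, 0.139 CPM. That floor covers counting error in ∆GAG-BG only, and the spread between S534A libraries is left out. The summed S534A counts (143) stood to the 2 counts of S545A in a depth-corrected ratio of 72.4 (95% counting interval 19.7 to 603), and to the 2 of the control vector in a ratio of 72.5 (19.7 to 605). These intervals pool the reads of each group and leave out the spread between libraries. They describe a contrast that was used in the selection and are not a test. Leaving out 1 library at a time, the S534A mean was 9.97 to 16.1 times the ∆GAG-BG floor. CHI3L1, the closest paralog of CHI3L2, had no count in any library.

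Of the 16069 genes that passed the filter, 67 (0.417%) had all S534A libraries above the other 9. Among these 67, CHI3L2 had the widest gap, 1.04 on the log2(CPM + 1) scale, a rank that reuses the values of its selection. In the fit across all genes (edgeR, S534A against the mean of the other 3 groups), 1 gene (0.00622%) had an adjusted p under 0.05 and 1109 genes (6.90%) had an unadjusted p under 0.05. The 1 gene was CHI3L2, no gene had an adjusted p under 0.05 with libraries 2 and 3 of the other groups summed (2.29% of genes before adjustment), and since the selection used that contrast nothing is read from the call.

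SEMA5A (ENSG00000112902.11, chr5:9035026-9546075, minus strand, 26 exons) was lower in S534A. The S534A libraries held 1.85, 1.84 and 2.06 CPM (52, 55 and 34 counts). S545A held 2.60, 3.63 and 4.13 CPM, ∆GAG-BG 4.22, 3.67 and 3.70, and the control vector 3.39, 3.06 and 3.45. All S534A libraries lay below the other 9, as was true of 71 (0.442%) of the 16069 genes that passed the filter. No gene of these 71 had a wider gap than SEMA5A (0.232 on the log2(CPM + 1) scale), a rank that reuses the values of its selection. The nearest library outside S534A was S545A replicate 1. The mean was 1.92 ± 0.128 CPM (n = 3) in S534A, against 3.45 ± 0.783 in S545A, 3.86 ± 0.307 in ∆GAG-BG and 3.30 ± 0.206 in the control vector. The S534A level was 54.0% of the mean of the other groups (log2 difference −0.89 ± 0.159, SE), and the log2 difference was −0.86 from S545A, −1.02 from ∆GAG-BG and −0.79 from the control vector.

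NFATC4 (ENSG00000100968.13, chr14:24365673-24379604, plus strand, 13 exons) was lower in S534A, at 11.7, 10.4 and 11.95 CPM (330, 311 and 197 counts). The S545A libraries held 13.8, 16.2 and 16.5 CPM, the ∆GAG-BG libraries 17.2, 16.1 and 16.8, and the control vector libraries 17.99, 17.5 and 18.01. S534A was below all of them, and S545A replicate 1 was again the nearest, with a gap of 0.192 on the log2(CPM + 1) scale. The S534A mean of 11.4 ± 0.853 CPM (n = 3) was 68.1% of the mean of the other groups (log2 difference −0.55 ± 0.0860, SE). Set against single groups, the log2 difference was −0.45 from S545A, −0.56 from ∆GAG-BG and −0.65 from the control vector.

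HSD11B1 (ENSG00000117594.9, chr1:209686178-209734950, plus strand, 7 exons) did not separate S534A from all other libraries. It stood at 10.8, 8.88 and 10.1 CPM in S534A (304, 266 and 166 counts), at 13.4, 16.1 and 14.9 in S545A and at 18.6, 21.1 and 18.02 in ∆GAG-BG. The control vector libraries held 18.2, 10.1 and 11.1 CPM. Replicate 2 fell within the S534A range and replicate 3 just above it, whereas S545A and ∆GAG-BG did not overlap S534A. These are the 2 control vector libraries whose TGFBR3 level went against the label. The means were 9.92 ± 0.975 CPM in S534A, 14.8 ± 1.38 in S545A, 19.3 ± 1.62 in ∆GAG-BG and 13.1 ± 4.38 in the control vector (SD, n = 3 each). S534A stood at 63.8% of the mean of the other groups (log2 difference −0.65 ± 0.163, SE), and the log2 difference was −0.96 from ∆GAG-BG, −0.58 from S545A and −0.41 from the control vector.

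Set beside the libraries of the same replicate number only, S534A was above the other 3 for CHI3L2 at each of the 3 numbers. It was below them for the other 3 genes. The narrowest of these comparisons by ratio was HSD11B1 at replicate 3, with 10.1 CPM in S534A and 11.1 in the lowest of the others. They reuse the values on which the genes were selected and are not a test. Nor do the numbers act as pairs for S534A, whose same-numbered libraries had correlated deviations of 0.263, −0.312 and 0.544 with S545A. Across numbers, HSD11B1 in control vector replicate 2 (10.1 CPM) lay within the S534A range (8.88 to 10.8). The log2 differences of S534A from the other groups ranged from −0.79 to −0.54 for HSD11B1, −0.95 to −0.84 for SEMA5A and −0.59 to −0.49 for NFATC4 over the 19 alternative settings. With libraries 2 and 3 of the other groups summed, they were −0.68, −0.88 and −0.55.

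**Figure D1:**
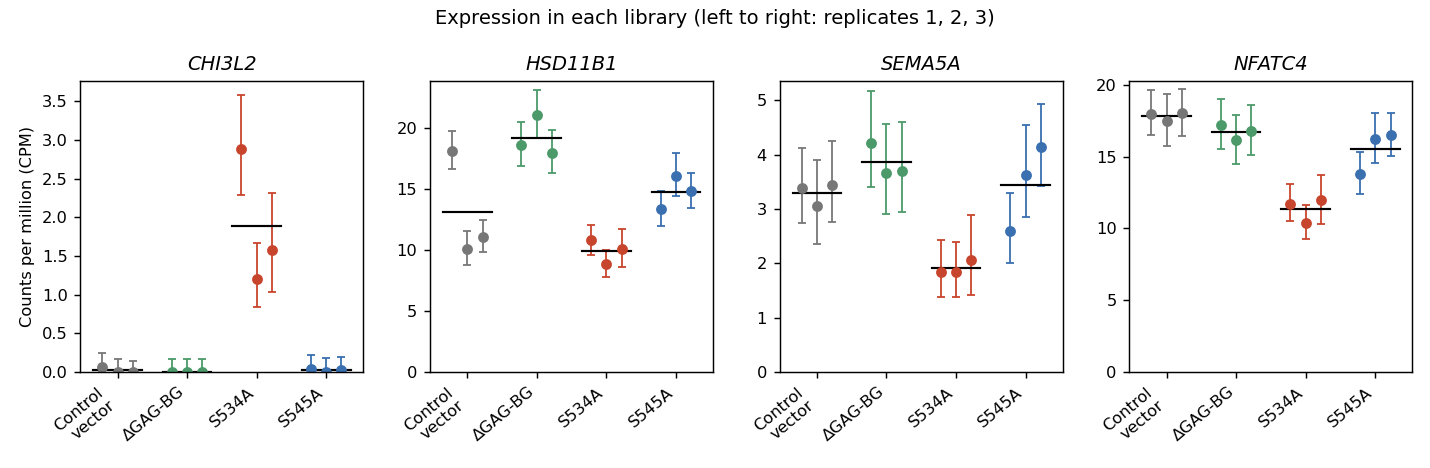
CPM of each gene in each library, by group; points are libraries in order of replicate number, bars are 95% Poisson counting intervals and black lines are group means. CHI3L2 stands above 1 CPM only in S534A, SEMA5A and NFATC4 are lowest in the 3 S534A libraries, and control vector replicate 2 lies within the S534A range for HSD11B1.

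Per gene length (TPM, counts divided by length and scaled to a common total), HSD11B1 was the most abundant of the 4 in S534A at 28.3 ± 3.38 TPM, followed by NFATC4 at 5.80 ± 0.584, CHI3L2 at 2.47 ± 1.18 and SEMA5A at 0.682 ± 0.0602 (SD, n = 3). In ∆GAG-BG the levels were 54.6 TPM for HSD11B1, 8.49 for NFATC4, 1.37 for SEMA5A and 0 for CHI3L2. CHI3L2 therefore ranked above SEMA5A in S534A and below it in the other groups.

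The 3 comparisons that hold no S534A library were not the contrast of the selection, and they were tested. Their libraries were still part of the choice, which can favor genes with little spread among them. A lack of difference in these tests is therefore not read as a result. CHI3L2 had at most 2 counts in any of these 9 libraries and was not tested there. No gene tested had an adjusted p under 0.05 (0% in each comparison), and 1.10% (S545A against ∆GAG-BG), 1.05% (S545A against the control vector) and 0.871% (∆GAG-BG against the control vector) had an unadjusted p under 0.05. DESeq2 also called none after adjustment and 105, 111 and 75 genes before it. HSD11B1, SEMA5A and NFATC4 had adjusted p = 1 in all 3 (edgeR quasi-likelihood test, Benjamini-Hochberg adjustment over 16069 genes), and the two-sided exact permutation test of 3 against 3 libraries cannot go below 0.1.

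The log2 difference of HSD11B1 between the libraries labelled ∆GAG-BG and those labelled control vector was 0.55 (95% interval 0.13 to 0.96, unadjusted p = 0.0140, exact permutation p = 0.2), and the groups overlapped. This value rested on single libraries. It was 0.39 without control vector replicate 2 (unadjusted p = 0.0659), 0.44 without control vector replicate 3 (unadjusted p = 0.0622) and 0.47 without ∆GAG-BG replicate 2 (unadjusted p = 0.0549). Without control vector replicate 1 it was 0.86 (unadjusted p = 6.32e-05, adjusted p = 1). That left control vector replicates 2 and 3, which were nearly alike (1.44 chi-square per degree of freedom). Nothing is therefore read from this p-value. With libraries 2 and 3 summed the log2 difference was 0.40 (unadjusted p = 0.131). It was 0.0204 without libraries 2 and 3 of both groups, whose TGFBR3 went against the labels, which left 1 library in each. HSD11B1 in S545A had a log2 difference of −0.38 from ∆GAG-BG (95% interval −0.79 to 0.03, unadjusted p = 0.0672), with no overlap between the groups. Its log2 difference from the control vector was 0.17 (−0.25 to 0.58, unadjusted p = 0.403), which became 0.47 without control vector replicate 1 and −0.32 without libraries 2 and 3 of ∆GAG-BG and the control vector.

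SEMA5A showed log2 differences of −0.16 (95% interval −0.55 to 0.23) for S545A against ∆GAG-BG, 0.06 (−0.33 to 0.45) for S545A against the control vector and 0.23 (−0.16 to 0.62) for ∆GAG-BG against the control vector. The last pair of groups did not overlap (exact permutation p = 0.1). NFATC4 differed by −0.11 (−0.33 to 0.11), −0.20 (−0.42 to 0.02) and −0.09 (−0.31 to 0.13) in the same order. Its groups did not overlap in S545A against the control vector nor in ∆GAG-BG against the control vector (exact permutation p = 0.1 for both). Of the 3 genes, 1 did not overlap in S545A against ∆GAG-BG, where 5.05% of all genes did not, 1 in S545A against the control vector (8.82%), and 2 in ∆GAG-BG against the control vector (4.87%).

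**Figure D2:**
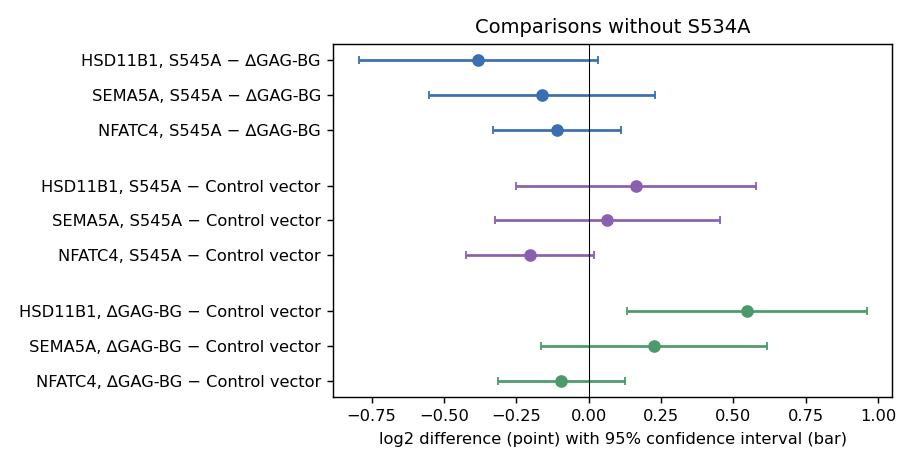
Log2 difference (point) and 95% confidence interval (bar) of HSD11B1, SEMA5A and NFATC4 in the 3 comparisons that hold no S534A library. The interval excludes 0 only for HSD11B1 in ∆GAG-BG against the control vector (0.13 to 0.96, adjusted p = 1).

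Across the 12 libraries, SEMA5A and NFATC4 varied together (Pearson r = 0.904 on log2(CPM + 1), a description, since both were selected for their level in S534A and all values share the libraries). CHI3L2 ran opposite to SEMA5A (r = −0.871), NFATC4 (r = −0.856) and HSD11B1 (r = −0.613). These signs follow from the selection, in which CHI3L2 was higher and the others lower in S534A. Within the 9 libraries outside S534A, r was 0.482 between SEMA5A and NFATC4, 0.519 between SEMA5A and HSD11B1, and −0.0634 between HSD11B1 and NFATC4. CHI3L2 had at most 2 counts in any of these 9. Its r there was −0.271 with SEMA5A, −0.132 with NFATC4 and 0.103 with HSD11B1.

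The genes most like HSD11B1 over the 12 libraries were CREG2 (r = 0.881), TIMP3, an inhibitor of metalloproteinases (r = 0.877), and FN1, fibronectin (r = 0.847). Over the 9 libraries outside S534A, which were part of the choice and include 3 pairs of close libraries, r was 0.835, 0.819 and 0.774. TIMP3 stood at 25.3, 15.2 and 26.4 CPM in S534A, 30.1 to 39.9 in S545A and 35.5 to 51.8 in ∆GAG-BG, and at 38.1, 30.2 and 27.1 in the control vector, where replicate 1 was again the highest. NFATC4 was most like RP11-120D5.1 (r = 0.931), SEMA5A, and KIF13B, a kinesin motor (r = 0.896, and 0.885 over those 9). SEMA5A was most like NFATC4, VMAC (r = 0.894) and VASP, an actin regulator (r = 0.890). CHI3L2 was most like RP11-517P14.2 (r = 0.838), ATPAF2, an assembly factor of mitochondrial ATP synthase (r = 0.827), and AC002116.7 (r = 0.808). Over the 9 libraries without S534A these fell to 0.0834, 0.519 and 0.416, where CHI3L2 itself had at most 2 counts.

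Beside CHI3L2, the genes above all other libraries in S534A by the widest gaps were LINC01119, POU3F2 (a neural transcription factor), SLC26A7 (an anion exchanger) and LIME1 (a lymphocyte adaptor). SLC26A7 stood at 0.818, 0.968 and 1.03 CPM in S534A and 0.245 to 0.635 in the other 9, and LIME1 at 4.43 to 6.84 in S534A and 3.31 to 3.91 in the others. Below all other libraries were PPARGC1A, a coactivator of mitochondrial genes, VMAC, AGAP2 and CXCR4, the chemokine receptor for CXCL12. PPARGC1A stood at 0.711, 0.501 and 0.485 CPM in S534A and 0.948 to 1.28 in the others, and CXCR4 at 1.46 to 1.74 in S534A and 1.96 to 6.43 in the others. CXCR4 was highest in replicate 1 of ∆GAG-BG (6.12 CPM) and of the control vector (6.43). These 8 genes were picked for the gap, and none of their values is a test.

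**Figure D3:**
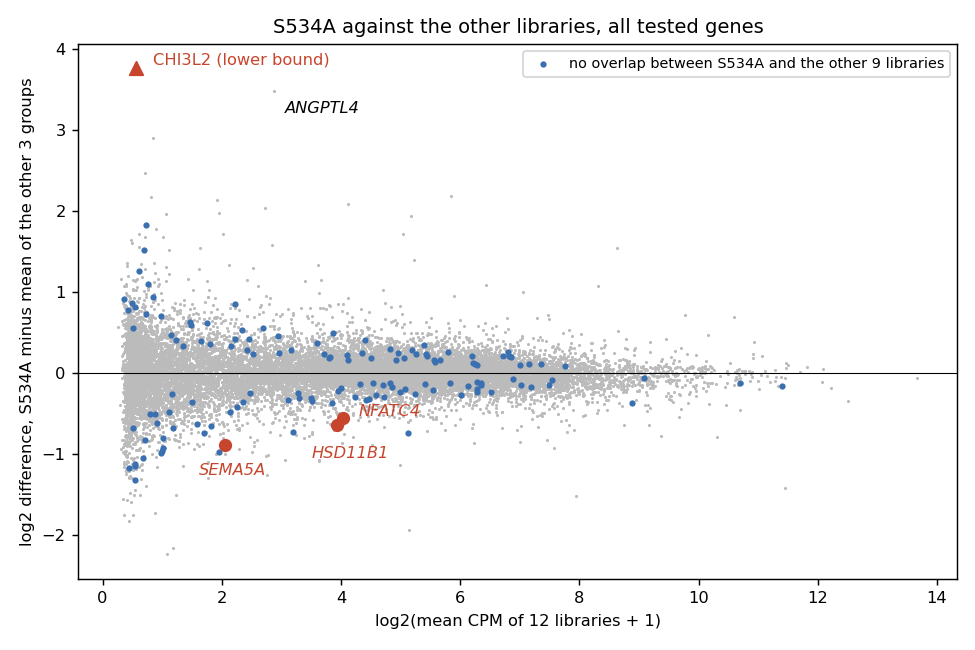
Log2 difference of S534A from the mean of the other 3 groups against mean level, log2(mean CPM + 1), for the 16069 genes tested; blue points are the 67 and 71 genes whose S534A libraries do not overlap the other 9, and red points are the 4 genes described. CHI3L2 is drawn as a triangle, marked as a lower bound, at 13.5-fold. This is its S534A mean over the 3-count floor of ∆GAG-BG, and it leaves out the spread between S534A libraries. SEMA5A, HSD11B1 and NFATC4 lie at −0.89, −0.65 and −0.55.

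Genes of the same families and pathways were read from the fit across all genes. Of 124 such genes, 89 were tested, and 8 of them (8.99%) had an unadjusted p under 0.05 in S534A against the other groups, 4 higher and 4 lower, beside 6.90% of all genes. None passed after adjustment (adjusted p = 0.638 for each of the 8). With DESeq2, 10 (11.2%) passed before adjustment, beside 6.57% of all genes, and 0 after it. The median log2 difference was −0.0024 over the related genes and 0.0021 over all genes tested. Library 2 of S534A weighed on this count. Without it 1 related gene (1.11%) and 1.57% of all genes passed the unadjusted threshold, and without S534A replicate 3 the numbers were 25 related genes (27.5%) and 18.9% of all genes. With libraries 2 and 3 of the other groups summed, 1 related gene (1.10%) and 2.29% of all genes passed.

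Of the chitinase family, CHI3L1 and CHIA were at 0 in all libraries and 3 genes were tested. OVGP1, an oviduct glycoprotein of the family encoded near CHI3L2, stood at 0.676, 0.768 and 1.27 CPM in S534A and 0.929 to 1.72 in the others (log2 difference −0.54, unadjusted p = 0.0489), and these ranges overlapped. OVGP1 did not pass that threshold with DESeq2, with scaling by library size only or with the replicate block. CHID1 and CTBS, the other members tested, had log2 differences of 0.19 and −0.43 with unadjusted p of 0.0790 and 0.0927.

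Neither main partner of HSD11B1 passed the unadjusted threshold. H6PD, which supplies its NADPH, had a log2 difference of −0.0024 (51.7 to 83.9 CPM over all libraries), and the receptor NR3C1 one of −0.02 (90.8 to 102.7 CPM). HSD11B2, which inactivates cortisol, had at most 4 counts in a library and was not tested. Of 14 tested genes of glucocorticoid metabolism, only AKR1C1, a steroid reductase, passed the unadjusted threshold (log2 difference 0.61, unadjusted p = 0.0423), with 2.99, 9.41 and 3.64 CPM in S534A, where replicate 2 alone was above the others (2.99 to 4.05).

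Of 14 tested glucocorticoid receptor targets, 3 were higher and 1 was lower at unadjusted p under 0.05 (6.90% of all genes passed in either direction). With DESeq2, 6 of 14 passed before adjustment and 0 after it, ERRFI1 and PER1 being the others, beside 6.57% of all genes before adjustment. ANGPTL4, a secreted inhibitor of lipoprotein lipase, had the largest difference of the list (3.47 ± 0.845, SE), but it stood at 2.52, 56.1 and 0.971 CPM in S534A and 0.784 to 4.08 in the others, so that it rests on replicate 2, without which it did not pass the unadjusted threshold. SGK1, a kinase that regulates ion transport, stood at 65.4, 124.8 and 65.7 CPM in S534A and 56.0 to 73.6 in the others (log2 difference 0.41, unadjusted p = 0.0312), again with replicate 2 apart. SLC19A2, a thiamine transporter, had a log2 difference of 0.35 (unadjusted p = 0.0404). KLF9, a transcription factor, was the gene with a lower value (−0.76, unadjusted p = 0.0408), at 8.28, 6.47 and 16.5 CPM in S534A and 10.3 to 21.7 in the others; as the fourth of its list it was named after its values were seen. The further classic targets, FKBP5, TSC22D3 and PER1, had log2 differences of 0.26, −0.37 and −0.58 with unadjusted p of 0.350, 0.152 and 0.0794.

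Of 15 tested semaphorins, SEMA3A, a secreted repulsive guidance cue, was the 1 with an unadjusted p under 0.05 (log2 difference −0.58, unadjusted p = 0.0400), at 8.46, 3.77 and 10.98 CPM in S534A and 8.33 to 13.5 in the others. SEMA5B, the closest paralog of SEMA5A, had no count. None of the 12 plexin, neuropilin and MET genes passed with edgeR (with DESeq2, 1 did before adjustment), among them the SEMA5A receptor PLXNB3 (log2 difference 0.05, 6.36 to 12.4 CPM over all libraries).

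None of the 25 tested NFAT, calcineurin and regulator genes passed the unadjusted threshold with edgeR or with DESeq2; STIM1, a calcium sensor, did with the replicate number as a block. The paralogs NFATC2 and NFATC3 had log2 differences of 0.00 ± 0.185 and 0.03 ± 0.0917 (SE), NFAT5, the family member that responds to tonicity, −0.23 ± 0.193, and NFATC1 had at most 5 counts. RCAN1, a calcineurin inhibitor and a direct NFAT target, had a log2 difference of −0.10 ± 0.132. Of 6 tested NFAT targets, NR4A1, an orphan nuclear receptor, was lower (−0.46, unadjusted p = 0.0371) at 7.43, 5.21 and 11.2 CPM in S534A and 8.92 to 12.2 in the others.

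**Figure D4:**
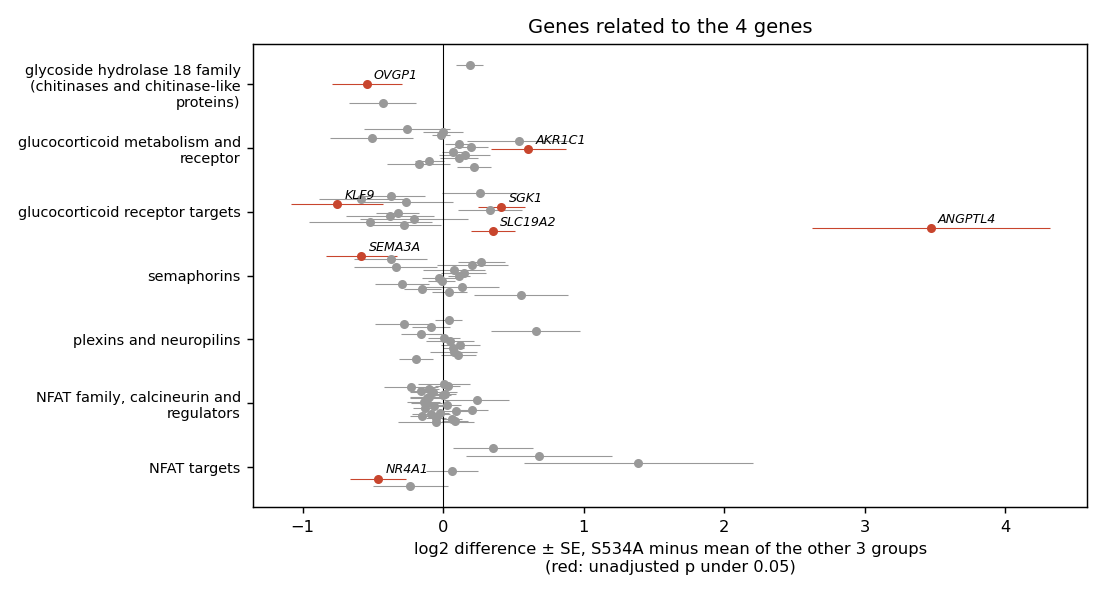
Log2 difference ± SE of S534A from the mean of the other 3 groups for the tested genes of 7 lists related to the 4 genes; red marks an unadjusted p under 0.05. The 8 red genes lie on both sides of 0, and ANGPTL4 at 3.47 rests on S534A replicate 2.

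The genes around the 4 loci were compared in the same fit. With at most 500 kb between gene ends, 53 neighbors were tested and 6 (11.3%) had an unadjusted p under 0.05, beside 6.90% of all genes. None passed after adjustment, and DESeq2 gave the counts 6 and 0, beside 6.57% of all genes before adjustment. Around CHI3L2, 3 of 13 did so, namely DRAM2 (log2 difference −0.17), OVGP1 (−0.54) and FAM212B (0.40), while the nearest tested gene upstream, CEPT1, stood at −0.02 and DENND2D, which overlaps the CHI3L2 locus on the other strand without sharing an exon, at −0.12. None of the 7 neighbors of HSD11B1 passed with edgeR, and 1 did with DESeq2 before adjustment. The nearest tested gene on each side, G0S2 and C1orf74, had log2 differences of 0.29 (unadjusted p = 0.113) and 0.08. RP1-28O10.1, on the other strand of the HSD11B1 locus with no shared exon, had −0.65 (unadjusted p = 0.0541), and the strand setting of the counting is not stated in the sources used here.

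SNHG18, a non-coding RNA that starts 124 bases from SEMA5A on the other strand, was the 1 tested neighbor of SEMA5A. It stood at 7.40, 6.34 and 11.2 CPM in S534A and 8.30 to 12.3 in the other 9 libraries, with a log2 difference of −0.35 ± 0.162 (unadjusted p = 0.0488, adjusted p = 0.638), and unlike SEMA5A its ranges overlapped. The 124 bases between them are the SEMA5A stretch with 6 GC box matches given above. Around NFATC4, DHRS4L2 (0.39) and PSME2 (0.19) passed the unadjusted threshold among 32 tested genes, and the nearest tested gene on each side, LTB4R and NYNRIN, had log2 differences of 0.19 and −0.25.

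**Figure D5:**
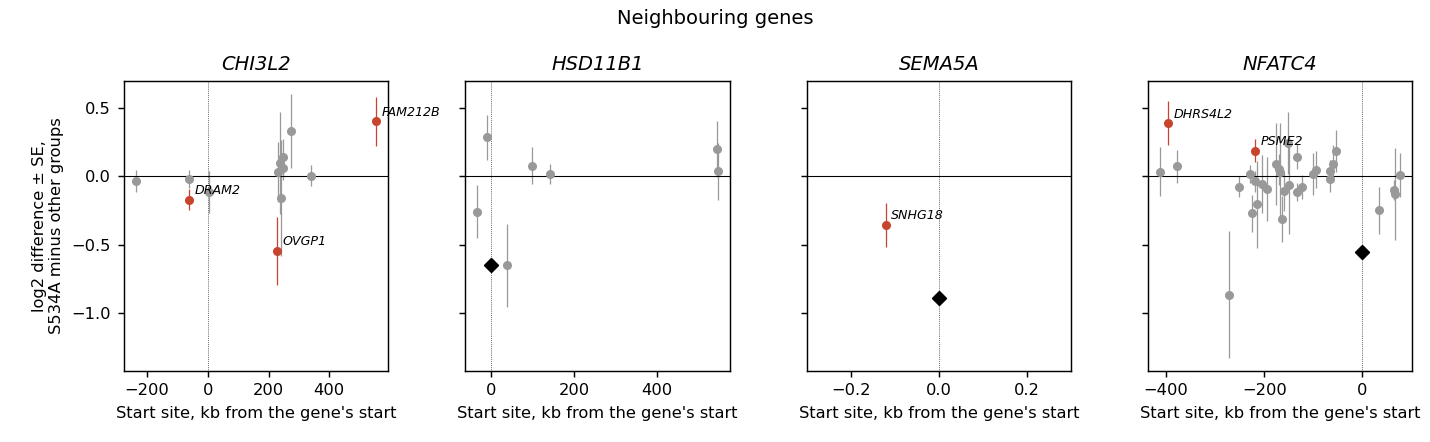
Log2 difference ± SE of S534A from the mean of the other 3 groups for tested neighbors, by the distance of their start site from that of each gene (kb, in the direction of transcription); black diamonds are SEMA5A, HSD11B1 and NFATC4 themselves and red marks an unadjusted p under 0.05. Neighbors have at most 500 kb between gene ends, and those with p under 0.05 are 3 of 13 for CHI3L2, 0 of 7 for HSD11B1, 1 of 1 for SEMA5A and 2 of 32 for NFATC4.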

How the data were processed

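RNA-seq of 12 HEYA8 libraries was used. The authors deposited unnormalized gene counts in 1 table. Reads had been checked with FastQC, trimmed with Trim Galore 0.4.5 and counted with featureCounts; the submitters' processing notes also name STAR 2.4 and SAMtools 1.2, and list mouse builds, while the deposited coordinates are human. The strand setting is not given in the sources used here. Groups came from the genotype labels and titles.

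Counts were filtered with filterByExpr (minimum count 10), scaled by TMM and fitted with edgeR 4.0.16 (robust quasi-likelihood, R 4.3.3) with all 4 groups in the model (8 residual degrees of freedom), at a biological coefficient of variation of 0.163 and Benjamini-Hochberg adjustment over 16069 genes. CPM is TMM-scaled, and TPM used the deposited gene lengths. Total counts were 16410001 to 29504297. Promoter windows were taken from RefSeq (GRCh38.p14) and annotation from GENCODE. The study's own test was made with bioJupies, and its results were not used.

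The 4 genes, the lists of related and marker genes and the alternatives were chosen with earlier results of these data known. Genes named are the 4, per list the 3 with the smallest unadjusted p under 0.05, the nearest tested neighbors, the 3 genes most correlated with each, the 4 higher and 4 lower genes with the widest gap, TGFBR3 and CHI3L1. Other list members, neighbors with an unadjusted p under 0.05 and neighbors on the other strand of a locus were named after their values were seen. Alternatives were DESeq2 1.42.0, scaling by RLE or by library size, leaving the low counts unfiltered, the replicate number as a block, each library left out, summed libraries 2 and 3, and ∆GAG-BG and control vector libraries 2 and 3 left out.

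Replicate numbers were not used in the main fit, and the block alternative applied them to all 4 groups. Same-numbered libraries of S545A and the control vector deviated together (correlations of 0.732, 0.480 and 0.481). In the other comparisons at least 1 pair was under 0.1.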

Additional observations from a re-analysis of the deposited data

How the results depend on the processing

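The differences of HSD11B1, SEMA5A and NFATC4 in S534A kept their direction under all 19 alternatives. The genes were selected for these differences in the same libraries, so this is not independent support. Of the 117 alternatives of the 9 tests without S534A, 0 had an adjusted p under 0.05 (edgeR or DESeq2), 10 had an unadjusted p under 0.05, all of them HSD11B1, and 5 had the opposite sign. For S545A against ∆GAG-BG, SEMA5A ranged from −0.32 to 0.0152 with 1 library left out. For S545A against the control vector, SEMA5A ranged from −0.0923 to 0.24 with 1 library left out and was −0.0228 with libraries 2 and 3 summed; HSD11B1 was −0.00424 with them summed and −0.32 with libraries 2 and 3 of ∆GAG-BG and the control vector left out. The cause was not tested. The count of 8 related genes ranged from 1 to 25 with 1 library left out. It was 1 with libraries 2 and 3 summed (2.29% of all genes then passed) and 10 with DESeq2 (6.57%). Without 1 library it was 1 (S534A 2, 1.57% of all genes then passed), 25 (S534A 3, 18.9%), 13 (S545A 1, 9.92%), 2 (S545A 2 or S545A 3, 4.41%), 2 (control vector 3, 4.66%), 5 (∆GAG-BG 1, 6.97%) and 4 (control vector 2, 4.64%). Among all genes tested, those with an adjusted p under 0.05 in S534A numbered 1, and 0 with libraries 2 and 3 summed, 2 with no filter on low counts or without S534A replicate 2, and 4 with DESeq2. With other scaling, 69 to 98 genes lay above and 56 to 68 below all other libraries in S534A, against 67 and 71.

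With the replicate number as a block, which takes the numbers as pairs, 8 related genes passed, and the log2 difference of S545A from the control vector was 0.19 for HSD11B1, 0.06 for SEMA5A and −0.20 for NFATC4. No call of the 9 tests changed. Among the related genes, AKR1C1 and OVGP1 no longer passed the unadjusted threshold under the block, and SEMA7A and STIM1 did. CHI3L2 rests on 26 to 81 counts and SEMA5A on 34 to 121 counts a library, which limits their precision.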
